A study of Mus musculus with 49 samples.

Results

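The 10 bigenic rNLS8 mice with the highest and the 10 with the lowest neocortical Cxcl10 were compared, to describe which inflammatory, glial and neuronal genes vary between mice of 1 genotype. Members were chosen by measured values. Cxcl10 was expressed as CPM, the count for each 1000000 counts of the library, in the 32 bigenic mice, and the 10 mice at each end were taken, which makes 20 of the 49 mice of the series. The rNLS8 mice carry NEFH-tTA, in which the promoter of the heavy neurofilament gene drives the tetracycline transactivator in neurons, together with tetO-hTDP-43ΔNLS, a human TDP-43 transgene that lacks the nuclear localization signal and is silent under doxycycline. All were on a mixed C57BL/6J × C3H/HeJ background, lost doxycycline at 25.5 weeks of age and were killed at 28.5 weeks, 3 weeks after induction. Immunization began at 8 weeks of age, with 5 injections before and 1 after induction. It used PBS (TDP-PBS, 10 mice), 40 µg of ovalbumin-coupled peptides 10 and 12 of human TDP-43 (TDP-10+12, 10 mice) or the same dose of the phosphorylated C-terminal peptide 15 (TDP-15, 12 mice). CpG oligonucleotide and Alhydrogel served as adjuvants. According to the paper, PBS took the place of the peptide conjugates in the control groups. It does not state separately whether these groups received the adjuvants. The 17 ctrl-PBS mice were monogenic littermates without induced hTDP-43ΔNLS that received PBS. Each mouse gave 1 neocortical library from about 30 mg of tissue, with 17775738 to 21033608 counts.

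CXCL10 is a chemokine that glia, endothelium and neurons release when interferon or NF-kappaB signalling is active, and it attracts T and NK cells through the receptor CXCR3. Interferons act through JAK kinases and the transcription factors these activate, which bind the interferon-stimulated response element after type I interferon and mainly the gamma-activated site after interferon gamma. Their targets include antiviral enzymes, guanylate-binding proteins and the genes of MHC class I antigen presentation, and in the brain microglia and astrocytes are the main responders.

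Cxcl10 itself served only to rank the mice and is left out of the results. In the 10 highest mice it lay between 8.08 and 28.9 CPM with a median of 8.50, and in the 10 lowest between 1.68 and 3.77 CPM with a median of 3.11. The 12 mice between them had 3.86 to 7.80 CPM, and the 17 ctrl-PBS mice 0 to 0.613 CPM. TDP-PBS mouse 42 at 8.08 CPM was the last mouse inside the high set and TDP-10+12 mouse 130 at 7.80 CPM the first outside it. TDP-15 mouse 54 at 3.77 CPM was the last inside the low set and TDP-PBS mouse 82 at 3.86 CPM the first outside. The limits thus fell inside a continuous range of values. At the top, 3 mice stood apart, namely TDP-15 mouse 126 at 28.9 CPM, TDP-PBS mouse 217 at 16.7 CPM and TDP-15 mouse 269 at 11.7 CPM, while the other 7 high mice lay between 8.08 and 8.83 CPM. The high set held 4 TDP-PBS, 1 TDP-10+12 and 5 TDP-15 mice, and the low set 1, 4 and 5. Sex was balanced, with 5 females among the high and 4 among the low mice. The share of mitochondrial counts was 11.5% to 15.3% in the high and 11.6% to 15.2% in the low mice, and depth overlapped, with 18346385 to 20557811 and 17775738 to 20317627 counts.

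**Figure D1:**
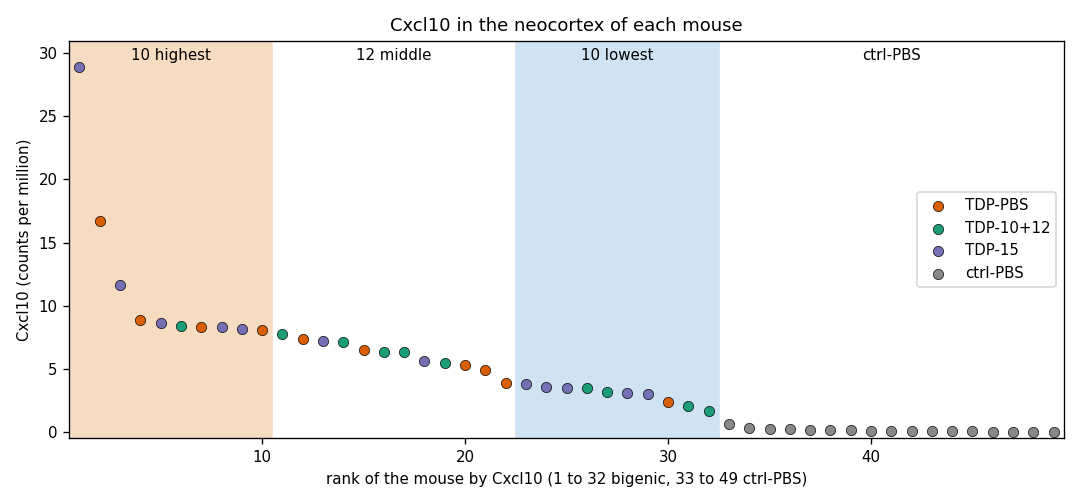
Cxcl10 in CPM (vertical axis) for each of the 49 mice, ranked within the bigenic and within the ctrl-PBS mice, with colours for the immunization groups and shading for the 10 highest and 10 lowest bigenic mice. TDP-15 mouse 126 reaches 28.9 CPM, the ranking has no gap at either limit of the 2 sets, and every ctrl-PBS mouse lies at or below 0.613 CPM.

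The promoter of Cxcl10 is shown beside those of the 4 genes with the smallest p-value among genes that rose with it and that have a window in the reference table, because the 3 classes of motif named above can be read in them. Each window holds 300 bases of GRCm38.p6 from RefSeq, 250 before and 50 after the annotated start, on the strand of the gene and 5′ to 3′. Capitals mark matches, on either strand, to GAAANNGAA (interferon-stimulated response element), TTCNNNGAA (gamma-activated site) and GGNNNTTCC (NF-kappaB site).
Cxcl10 (chr5:92348840-92349139, minus strand): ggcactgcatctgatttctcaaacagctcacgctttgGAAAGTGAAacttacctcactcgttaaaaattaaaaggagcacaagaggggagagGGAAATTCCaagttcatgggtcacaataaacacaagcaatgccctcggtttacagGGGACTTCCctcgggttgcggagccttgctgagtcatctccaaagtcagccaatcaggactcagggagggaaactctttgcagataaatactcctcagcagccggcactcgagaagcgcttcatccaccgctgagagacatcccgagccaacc
Ifit1 (chr19:34640639-34640938, plus strand): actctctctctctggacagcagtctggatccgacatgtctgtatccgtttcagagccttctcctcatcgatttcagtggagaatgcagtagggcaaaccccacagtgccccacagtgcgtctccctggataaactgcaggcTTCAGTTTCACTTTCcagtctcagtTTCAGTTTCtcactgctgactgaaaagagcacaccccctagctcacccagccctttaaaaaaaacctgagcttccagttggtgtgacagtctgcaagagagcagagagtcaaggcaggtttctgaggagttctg
Rsad2 (chr12:26456403-26456702, minus strand): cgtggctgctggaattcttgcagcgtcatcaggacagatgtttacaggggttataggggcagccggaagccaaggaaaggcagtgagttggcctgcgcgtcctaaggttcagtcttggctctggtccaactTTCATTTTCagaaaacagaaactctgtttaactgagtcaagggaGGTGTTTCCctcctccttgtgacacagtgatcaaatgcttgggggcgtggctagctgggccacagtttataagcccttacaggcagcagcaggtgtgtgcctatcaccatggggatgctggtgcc
Ifit2, upstream start (chr19:34550444-34550743, plus strand): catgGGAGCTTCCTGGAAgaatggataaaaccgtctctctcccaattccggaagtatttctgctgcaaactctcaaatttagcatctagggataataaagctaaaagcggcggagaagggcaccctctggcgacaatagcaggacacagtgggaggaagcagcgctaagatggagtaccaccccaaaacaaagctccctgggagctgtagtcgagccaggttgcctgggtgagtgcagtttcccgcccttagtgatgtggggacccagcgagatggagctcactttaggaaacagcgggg
Ifitm3 (chr7:141010695-141010994, minus strand): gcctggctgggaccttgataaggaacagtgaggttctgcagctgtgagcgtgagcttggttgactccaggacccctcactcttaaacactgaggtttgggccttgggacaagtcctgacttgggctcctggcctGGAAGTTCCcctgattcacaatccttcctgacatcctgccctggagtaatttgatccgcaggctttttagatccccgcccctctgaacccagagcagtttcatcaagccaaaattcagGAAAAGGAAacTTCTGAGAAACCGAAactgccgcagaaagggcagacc
Cxcl10 held 1 response element that began 213 bases before the start and 2 NF-kappaB matches. Ifit1 held 3 response elements, of which the first 2 overlap, and Rsad2 1 response element and 1 NF-kappaB match. In Ifit2 an NF-kappaB match overlaps a gamma-activated site, and the window of its other annotated start held none of the 3 motifs. Ifitm3 held 2 response elements, the second of which overlaps a gamma-activated site, and 1 NF-kappaB match. Over all 32851 windows of the table, 8.56% held GAAANNGAA, 8.30% TTCNNNGAA and 18.5% GGNNNTTCC, and over the first windows of the 13035 tested genes that had one, 7.17%, 6.89% and 20.9%. Of the 332 genes that rose with Cxcl10, 250 had a window, and 26.4% of these held GAAANNGAA, 15.2% TTCNNNGAA and 25.6% GGNNNTTCC. Among the 39 genes that fell, 28 had a window, and 3.57%, 10.7% and 0% of these held the 3 motifs in the same order. A match to these letters is a description and shows no binding.

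Because the high and low sets were selected on a measured value, no test was made between them. Instead, the relation of each gene to Cxcl10 was tested across all 32 bigenic mice with edgeR's quasi-likelihood test, with immunization group as a factor. The result is a slope, the log2 change of the gene for each doubling of Cxcl10. Of 17748 genes tested, 332 (1.87%) rose with Cxcl10 and 39 (0.220%) fell at an adjusted p-value under 0.05. The median slope was 0.33 among the genes that rose, −0.15 among those that fell and 0.00 over all genes tested. For 31 genes (0.175% of those tested) all 10 high mice lay above all 10 low mice, and for 0 genes (0.00%) did all lie below. The slope was positive in the TDP-PBS, TDP-10+12 and TDP-15 mice alike for 317 of the 332 genes that rose, and negative in all 3 groups for 38 of the 39 that fell. These genes were chosen by the slope over the same mice, which favours a shared sign, so these counts are a description.

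Fewer genes were called when 1 animal was left out. Without TDP-15 mouse 126, which had the highest Cxcl10, 131 genes rose, 126 of them among the 332, and 13 fell, 4 of them among the 39. Values without this mouse are therefore given beside the groups of genes.

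In bulk tissue, fewer cells of a type and less RNA per cell cannot be told apart, which holds for each group of genes. The interferon-stimulated genes rose together. All 36 members of the list of type I interferon-stimulated genes rose with Cxcl10, with a median slope of 0.53 and a range from 0.15 (Cmpk2) to 0.90 (Isg15), against a median of 0.00 over all genes. In 16 of the 36 the high mice did not overlap with the low mice. Without mouse 126, 33 of the 36 rose and the median slope was 0.52. The summed level of the list was 697 to 1897 CPM in the high mice, 288 to 594 CPM in the low mice and 168 to 254 CPM in ctrl-PBS. The low mice thus lay above every ctrl-PBS mouse in this sum as well.

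Isg15, a ubiquitin-like protein that is conjugated to other proteins in interferon-treated cells, lay between 5.0 and 21.2 CPM (median 10.6) in the high mice and between 0.955 and 5.34 CPM (median 2.83) in the low mice. Its ratio of means was 3.78, its slope 0.90 (SE 0.11, adjusted p = 1.49e-06), and 9 of the 10 high mice lay above every low mouse. Rsad2, the antiviral enzyme viperin, had 7.27 to 35.6 CPM (median 12.3) in the high and 2.35 to 6.83 CPM (median 4.75) in the low mice, without overlap. Its slope was 0.80 (SE 0.09, adjusted p = 4.05e-07). Ifit1, which blocks translation of viral RNA, had 21.7 to 69.6 CPM in the high and 5.18 to 17.0 CPM in the low mice, also without overlap, and a slope of 0.75 (SE 0.08, adjusted p = 4.05e-07). In Ifit2, from the same family, the corresponding ranges were 17.9 to 46.6 and 7.39 to 17.1 CPM. The ranges of Ifitm3, a membrane protein that blocks virus entry, were 19.1 to 48.9 and 10.1 to 19.1 CPM, so that the lowest high and the highest low mouse were nearly equal. Eif2ak2, the RNA-activated kinase PKR, had 10.53 to 21.6 against 4.32 to 9.13 CPM, without overlap. Oas2, which makes the messenger that activates RNase L, separated the sets as well, with 7.42 to 32.6 CPM against 2.61 to 7.17 CPM and a slope of 0.73 (SE 0.07, adjusted p = 1.40e-07).

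Transcription factors of the pathway were among the genes that rose. Irf7, the factor that amplifies type I interferon production, reached 31.1 to 123 CPM in the high and 7.59 to 26.8 CPM in the low mice, with a slope of 0.69 (SE 0.08, adjusted p = 1.52e-06). Irf9 rose with a slope of 0.43 (SE 0.06, adjusted p = 3.24e-05). The smallest slope of the list was that of Cmpk2, a mitochondrial nucleotide kinase, at 0.15 (SE 0.03, adjusted p = 9.47e-03). Cmpk2 had 24.4 to 37.3 CPM in the high and 20.03 to 27.45 CPM in the low mice, which overlap, and without mouse 126 its slope was 0.14 (adjusted p = 0.119). Several members, among them Ifit3 and Ifit3b, Oas1a and Oas1b, and Tgtp1 and Tgtp2 of the next list, are near-identical copies whose reads may have been shared between them.

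Guanylate-binding proteins (GBP) and immunity-related GTPases, which attack the vacuoles of intracellular pathogens and respond strongly to interferon gamma, also rose together. The list of 17 genes also holds the regulators Irf1, Irf8 and Socs1, which are not GTPases. All 17 members of this list rose, with a median slope of 0.48 between 0.25 (Irf1) and 0.70 (Gbp6), and without mouse 126 12 of 17 rose. Gbp6 had the smallest p-value of all genes tested. It lay between 18.01 and 64.0 CPM (median 21.6) in the high mice, between 11.2 and 23.4 CPM in the middle mice, between 7.31 and 12.1 CPM (median 8.998) in the low mice and between 1.29 and 7.81 CPM in ctrl-PBS. The slope of Gbp6 was 0.70 (SE 0.06, adjusted p = 7.31e-10), and it correlated with Cxcl10 with a Pearson r of 0.91, the highest of the genes tested. Gbp2 had 7.58 to 24.4 CPM in the high and 4.01 to 7.18 CPM in the low mice, again without overlap, while none of the low mice lay above the highest ctrl-PBS mouse at 10.6 CPM. Irf1, the factor through which interferon gamma induces many of these genes, had 4.23 to 9.54 CPM against 3.48 to 5.22 CPM and a slope of 0.25 (SE 0.04, adjusted p = 6.77e-04), which was 0.19 (adjusted p = 0.0762) without mouse 126.

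**Figure D2:**
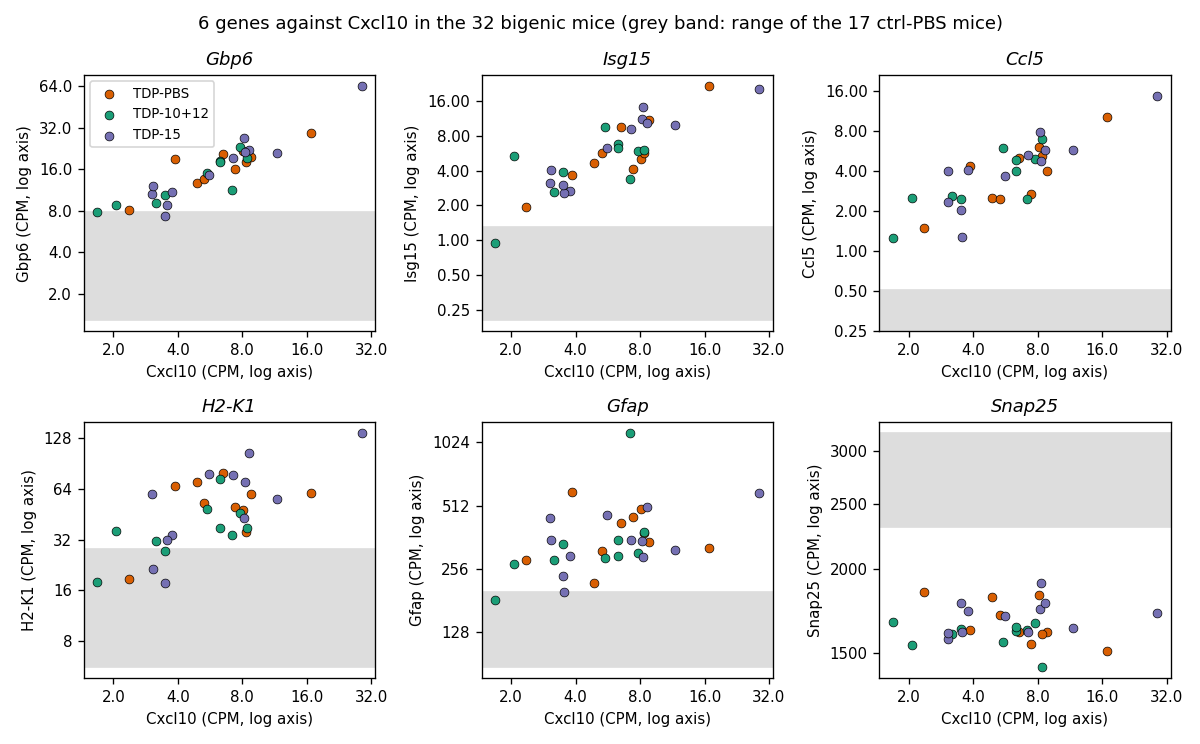
Level of 6 genes in CPM (vertical axes, logarithmic) against Cxcl10 in CPM (horizontal axes, logarithmic) in the 32 bigenic mice, coloured by immunization group, with the range of the 17 ctrl-PBS mice as a grey band (cut off at the lower end for Ccl5, where it reaches 0). Gbp6, Isg15 and Ccl5 increase with Cxcl10 in all 3 groups (Pearson r 0.91, 0.84 and 0.83), H2-K1 with wider scatter (0.68), Gfap weakly (0.43) with TDP-10+12 mouse 301 far above the others, and Snap25 lies below the band at any Cxcl10 (−0.04).

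The machinery of MHC class I antigen presentation, by which cells display peptides to CD8 T cells, rose in 11 of 13 members, with a median slope of 0.32. Without mouse 126, 5 of 13 rose with a median of 0.33. B2m, the invariant light chain, had 195 to 541 CPM (median 264) in the high and 65.9 to 207 CPM (median 151) in the low mice, with a slope of 0.49 (SE 0.07, adjusted p = 5.11e-05). Of the 10 high mice, 9 lay above every low mouse. The immunoproteasome subunit Psmb8 and the peptide transporter Tap1 separated the sets completely, with 13.3 to 49.2 against 8.09 to 13.1 CPM and with 28.4 to 73.3 against 16.1 to 27.2 CPM. Nlrc5, the transactivator of class I genes, had the highest slope of the list, 0.58 (SE 0.10, adjusted p = 1.99e-04). The heavy chain gene H2-K1 had 35.6 to 137 CPM in the high and 17.7 to 59.7 CPM in the low mice, and its slope of 0.49 (SE 0.11, adjusted p = 7.59e-03) was 0.46 (adjusted p = 0.118) without mouse 126. H2-D1 was not called, with 34.6 to 452 CPM (median 54.3) in the high and 17.9 to 184 CPM (median 31.1) in the low mice and a slope of 0.23 (SE 0.29, adjusted p = 0.832). In H2-D1 the within-group slope was −0.58 in TDP-PBS and positive in the immunized groups. Genes of this family are highly similar and polymorphic between mouse strains, and their counts on a mixed background are uncertain.

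MHC class II, which presents peptides to CD4 T cells, was not called. With edgeR, 0 of 7 members rose and 2 did so at an unadjusted p-value under 0.05, and DESeq2 and limma-voom called 0 as well. The median slope was 0.24. Without mouse 126 it was 0.12, with 0 called by edgeR and 0 at an unadjusted p-value under 0.05. Cd74, the invariant chain, had 5.51 to 43.5 CPM in the high and 3.68 to 16.7 CPM in the low mice with a slope of 0.41 (SE 0.14, adjusted p = 0.157), and the median slope of the list was −0.56 in TDP-PBS and 0.35 and 0.49 in TDP-10+12 and TDP-15.

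**Figure D3:**
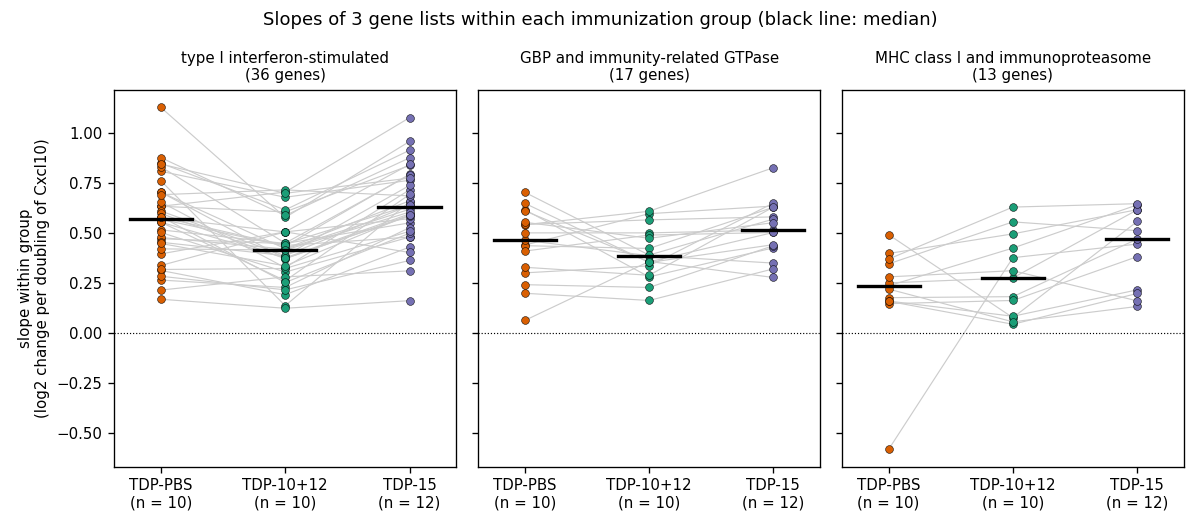
Slope on Cxcl10 (vertical axis, log2 change per doubling) within the 10 TDP-PBS, 10 TDP-10+12 and 12 TDP-15 mice for the genes of 3 lists, with 1 point per gene, lines that join the same gene and black bars for the medians. All 36 interferon-stimulated genes and all 17 genes of the GTPase list lie above 0 in each group, and in the MHC class I list H2-D1 lies at −0.58 in TDP-PBS.

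The slope of the interferon-stimulated genes had the same direction in each immunization group. The median slope of the type I list was 0.57 in TDP-PBS, 0.42 in TDP-10+12 and 0.63 in TDP-15, and the 36 slopes were positive in all 3 groups. In females the median was 0.27 and in males 0.66. A difference of slopes was called for 0 genes between immunization groups (smallest adjusted p = 0.318, with 1628 genes at an unadjusted p-value under 0.05) and for 0 genes between sexes (smallest adjusted p = 0.764, with 1040 genes) by edgeR's test of the interaction. Fitted alone, the groups gave unequal numbers of calls. In TDP-15 164 genes rose and 16 fell, in TDP-PBS 10 and 2, and in TDP-10+12 0 and 0, where 1234 genes had an unadjusted p-value under 0.05. Cxcl10 spanned 3.25 log2 units in TDP-15, 2.83 in TDP-PBS and 2.32 in TDP-10+12. The span of TDP-15 includes mouse 126 at 28.9 CPM, with the next mouse of this group at 11.7 CPM. TDP-15 was not fitted alone without mouse 126, so the part of this mouse in its calls was not tested. In males 267 genes rose and 11 fell, and in females 0 rose and 1 fell, with 985 genes at an unadjusted p-value under 0.05. Cxcl10 ran from 1.68 to 28.9 CPM in males, with mouse 126 at the top, and from 2.07 to 11.7 CPM in females.

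Chemokines other than Cxcl10 divided into those that rose with it and those that did not. Ccl5, Ccl2, Ccl12 and Cxcl16 rose among 11 tested, and 2 of the 11 did so without mouse 126. Ccl5, which attracts T cells and monocytes, had 3.97 to 14.6 CPM (median 5.91) in the high, 1.26 to 4.05 CPM (median 2.40) in the low and 0 to 0.514 CPM in the ctrl-PBS mice. Every bigenic mouse thus lay above every ctrl-PBS mouse, and 9 of 10 high mice above every low mouse. The slope of Ccl5 was 0.77 (SE 0.09, adjusted p = 6.27e-07). Ccl2, the monocyte chemokine, had 0.732 to 4.92 CPM against 0.481 to 1.39 CPM and a slope of 0.61 (SE 0.12, adjusted p = 1.29e-03), and without mouse 126 its slope was 0.54 (adjusted p = 0.0624). Cxcl9, a CXCR3 ligand like CXCL10 that depends on interferon gamma, was low throughout, with 0.549 to 3.09 CPM in the high and 0.0494 to 0.933 CPM in the low mice. Its slope of 0.69 (SE 0.21) was not called (adjusted p = 0.0964). Ccl7, another monocyte chemokine, did not pass the filter on low counts, and without the filter it was called by edgeR (slope 0.96, adjusted p = 0.0102) and by DESeq2 (slope 0.99, adjusted p = 0.00101) on at most 21 counts. Cxcl14 had the lowest slope of the list, −0.08 (SE 0.04, adjusted p = 0.412).

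The interferons themselves were hardly counted. Ifnb1 had 0 counts in all 49 mice, which allows at most 0.143 to 0.169 CPM for each library at 3 counts, an allowance for counting error only. Ifng had at most 2 counts in any bigenic mouse and was detected in 3 high and 4 low mice, and Ifna4 had at most 3 counts. Receptors varied little, with Ifnar1, a chain of the type I interferon receptor, at 31.5 to 38.1 CPM in the high and 32.4 to 42.0 CPM in the low mice (slope −0.04, SE 0.02, adjusted p = 0.466). Of the 9 tested members of the list of interferons and receptors, Ifngr1 and Irf5 rose, and 0 did so in edgeR's test without mouse 126, with 3 higher at an unadjusted p-value under 0.05.

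Sensors of nucleic acids, several of which are induced by interferon, rose in 6 of 12 members and in 5 of 12 without mouse 126. Zbp1, a sensor of Z-form nucleic acid that can trigger necroptosis, had the highest slope, 0.77 (SE 0.07, adjusted p = 4.08e-08), with 2.23 to 11.6 CPM in the high and 0.854 to 2.55 CPM in the low mice. Ddx58, the RNA sensor RIG-I, had 14.6 to 40.5 CPM against 8.69 to 15.5 CPM and a slope of 0.45 (SE 0.05, adjusted p = 6.27e-07). Ddx58, Ifih1, Dhx58 and Zbp1 also belong to the type I list. Aim2, a sensor of cytosolic DNA, had the smallest slope, 0.08 (SE 0.07, adjusted p = 0.734).

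Genes of TNF, IL-1 and NF-kappaB signalling rose in 5 of 16 members, and in 2 of 16 without mouse 126. Icam1, an adhesion molecule for leukocytes, separated high (7.47 to 22.1 CPM) from low mice (3.47 to 7.30 CPM) and had a slope of 0.50 (SE 0.06, adjusted p = 2.60e-06). Nfkb2, Tnfaip2 and the receptors Tnfrsf1a and Tnfrsf1b had slopes between 0.26 and 0.36. The cytokine gene Tnf lay at 0.193 to 2.80 CPM in the high and 0 to 2.36 CPM in the low mice, with a slope of −0.01 (SE 0.22, adjusted p = 0.995), and Il1b had at most 16 counts and was not tested.

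**Figure D4:**
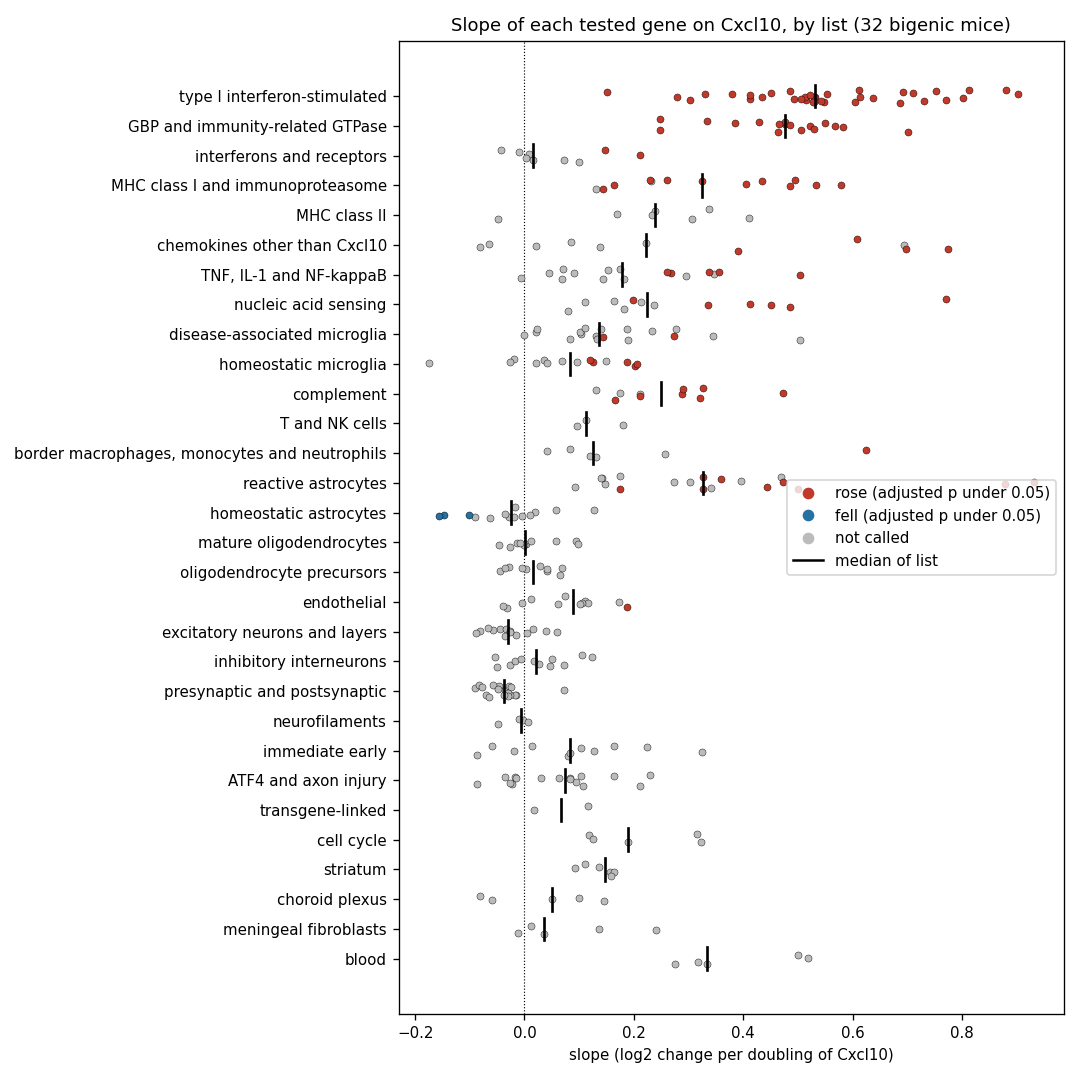
Slope on Cxcl10 (horizontal axis, log2 change per doubling) of every tested gene of the 30 lists over the 32 bigenic mice, with red points for genes that rose, blue for genes that fell, grey for genes not called and a black bar at the median of each list. The interferon-stimulated, GTPase and MHC class I lists lie to the right of 0 (medians 0.53, 0.48 and 0.32), and the neuronal and oligodendrocyte lists are centred near 0 with no called member.

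Microglia, the resident macrophages of the brain, are described with 2 lists and the complement genes. Of 14 genes of homeostatic microglia 5 rose, with a median slope of 0.08 over the list. Among them were Aif1 (Iba1), Tmem119, Csf1r and Cx3cr1, with slopes between 0.12 and 0.21, and 1 of 14 rose without mouse 126. Aif1 overlapped broadly, with 10.9 to 20.2 CPM against 6.36 to 15.7 CPM (slope 0.21, SE 0.05, adjusted p = 0.0303), and without mouse 126 its slope was 0.19 (adjusted p = 0.179). P2ry12, the purinergic receptor of surveying microglia, was 20.6 to 32.6 CPM in the high and 22.03 to 27.2 CPM in the low mice, with a slope of 0.04 (SE 0.04, adjusted p = 0.772).

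Genes of disease-associated microglia, a state described around amyloid and in other neurodegeneration, were mostly not called. Of 18 members, Axl and Gpnmb rose, with a median slope of 0.14 over the list. At an unadjusted p-value under 0.05 in edgeR's test, 11 of 18 were higher, against 2038 of 17748 genes in either direction. DESeq2 called 3 of the 18 and limma-voom 1. Of the 18 slopes 17 were positive, against 8896 of 17748 over all genes. The median slope was −0.04 in TDP-PBS, 0.20 in TDP-10+12 and 0.19 in TDP-15. Without mouse 126, 0 of 18 rose in edgeR's test with 3 higher at an unadjusted p-value under 0.05, and the median slope was 0.09. Cst7, an inhibitor of cathepsins, had 0.919 to 6.74 CPM (median 2.77) in the high, 1.42 to 7.86 CPM (median 3.45) in the middle, 0.905 to 3.78 CPM (median 2.61) in the low and 0 to 0.315 CPM in the ctrl-PBS mice. All bigenic mice lay above every ctrl-PBS mouse, and the highest value was in the middle set. The slope of Cst7 was 0.10 (SE 0.16, adjusted p = 0.863). Within TDP-PBS, TDP-10+12 and TDP-15 it was −0.80, 0.52 and 0.24. Itgax, the integrin CD11c, had 1.42 to 22.4 CPM against 1.14 to 5.76 CPM with a slope of 0.50 (SE 0.15, adjusted p = 0.0802), and its highest value was that of mouse 126. Apoe, a lipoprotein of glia, had a slope of 0.02 (SE 0.04, adjusted p = 0.905).

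Complement rose in 7 of 10 members, with a median slope of 0.25, but in 0 of 10 without mouse 126 in edgeR's test, where 7 were higher at an unadjusted p-value under 0.05 and the median slope was 0.17. The subunit gene C1qa had 44.5 to 116 CPM (median 54.7) in the high and 23.9 to 50.5 CPM (median 43.9) in the low mice, with a slope of 0.32 (SE 0.07, adjusted p = 3.22e-03). C4b, made largely by astrocytes, had 324 to 801 CPM against 158 to 468 CPM and 35.4 to 73.8 CPM in ctrl-PBS, with a slope of 0.33 (SE 0.08, adjusted p = 0.0137). C3, the central component, had 1.40 to 12.6 CPM against 0.905 to 4.48 CPM. Its slope of 0.47 (SE 0.13, adjusted p = 0.0371) was 0.17 without mouse 126 (adjusted p = 0.709).

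Reactive astrocytes, which enlarge and express intermediate filaments and secreted factors after injury, were represented by 19 tested genes, of which 9 rose, with a median slope of 0.33. Without mouse 126, 2 rose and the median slope was 0.26. Osmr, the oncostatin M receptor, had 7.32 to 15.4 CPM in the high and 4.28 to 7.96 CPM in the low mice (slope 0.36, SE 0.06, adjusted p = 5.63e-04). Timp1, an inhibitor of metalloproteinases, had the highest slope of the list, 0.93 (SE 0.22, adjusted p = 0.0156), on 0.349 to 3.45 CPM against 0.214 to 1.22 CPM, and without mouse 126 its slope was 0.89 (adjusted p = 0.170). Gfap, the filament protein of reactive astrocytes, lay at 292 to 585 CPM (median 362) in the high, 220 to 1133 CPM (median 349) in the middle and 181 to 448 CPM (median 281) in the low mice. Its slope of 0.27 (SE 0.10) was not called (adjusted p = 0.231). The highest Gfap was in TDP-10+12 mouse 301, in the middle set, which had 7.15 CPM of Cxcl10, and without this mouse the slope of Gfap was 0.19 (adjusted p = 0.264).

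Of 14 genes of homeostatic astrocytes 3 fell, the glutamate transporters Slc1a2 and Slc1a3 and the gap junction gene Gja1, and 0 fell in edgeR's test without mouse 126, with 4 lower at an unadjusted p-value under 0.05. Slc1a2 had 885 to 1842 CPM (median 1229) in the high and 1262 to 1740 CPM (median 1540) in the low mice (slope −0.15, SE 0.04, adjusted p = 0.0298). Slc1a3 had 240 to 333 CPM against 303 to 358 CPM (slope −0.10, SE 0.03, adjusted p = 0.0287), and 9 of 10 high mice lay below every low mouse. Aqp4, the water channel of astrocyte endfeet, was not called, with a slope of 0.13 (SE 0.05, adjusted p = 0.257).

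The 12 named genes that fell with the smallest p-value were not chosen by cell type, and the cells that express them were not measured. Ndrg2, an abundant astrocyte protein, had 565 to 924 CPM (median 705) in the high and 825 to 1012 CPM (median 888) in the low mice. Its slope was −0.15 (SE 0.04, adjusted p = 0.0136), and 7 of 10 high mice lay below every low mouse. Grin2c, an NMDA receptor subunit, had 33.3 to 53.9 CPM against 49.9 to 61.5 CPM (slope −0.14, SE 0.03, adjusted p = 0.0165). The claudin Cldn10 and the mitochondrial transporter Sfxn5 had slopes of −0.17 and −0.13. Synm, which encodes the intermediate filament protein synemin, had the smallest p-value of the genes that fell, with 18.1 to 26.6 CPM against 22.99 to 30.7 CPM and a slope of −0.13 (SE 0.03, adjusted p = 7.21e-03). Plxna3, a semaphorin co-receptor of neurons, had 28.1 to 47.0 CPM against 42.1 to 53.5 CPM, with a slope of −0.14 (SE 0.03, adjusted p = 8.32e-03). Without mouse 126, Ndrg2, Grin2c, Cldn10, Sfxn5 and Synm had slopes between −0.15 and −0.11 with adjusted p-values between 0.0614 and 0.169, while the adjusted p-value of Plxna3 was 0.0248.

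The steepest slopes among these 12 genes were those of Cyp11a1 and Abhd1. Cyp11a1, which makes pregnenolone from cholesterol, had 0.199 to 2.65 CPM in the high and 1.87 to 4.84 CPM in the low mice (slope −0.61, SE 0.15, adjusted p = 0.0236). Abhd1 had 3.51 to 8.01 CPM (median 4.50) in the high, 3.76 to 16.4 CPM in the middle and 4.06 to 18.7 CPM (median 10.8) in the low mice (slope −0.55, SE 0.13, adjusted p = 0.0140), and 3.37 to 19.8 CPM in ctrl-PBS. Gabra2, a GABA-A receptor subunit, had 50.1 to 114 CPM against 82.1 to 126 CPM (slope −0.23, SE 0.06, adjusted p = 0.0216). Without mouse 126 the slopes of Cyp11a1, Abhd1 and Gabra2 were −0.56, −0.64 and −0.23, with adjusted p-values of 0.143, 0.0249 and 0.0998.

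Neurons express the transgene. In 4 fixed lists of excitatory neurons, interneurons, synaptic proteins and neurofilaments, edgeR called 0 of 49 genes in either direction. At an unadjusted p-value under 0.05, 1 was higher and 2 were lower, and DESeq2 and limma-voom each called 0. Without mouse 126 edgeR again called 0, but 3 interneuron genes were higher and 2 excitatory and 4 synaptic genes lower at an unadjusted p-value under 0.05. Over all genes, 1178 of 17702 were higher and 851 lower in this fit. Snap25, a protein of the synaptic vesicle fusion machinery, had 1434 to 1911 CPM (median 1680) in the high, 1542 to 1852 CPM (median 1623) in the low and 2308 to 3183 CPM in the ctrl-PBS mice. Its slope was −0.02 (SE 0.02, adjusted p = 0.824). Nefl, the light neurofilament chain, had 103 to 140 CPM against 114 to 152 CPM, while ctrl-PBS had 211 to 271 CPM, with a slope of −0.05 (SE 0.03, adjusted p = 0.629). Nefm and Nefh had slopes of 0.00 (SE 0.03) and 0.01 (SE 0.03). Among synaptic genes, 1 of 19 slopes was positive, against 8896 of 17748 over all genes tested. The 19 slopes lay between −0.09 (Stx1a) and 0.07 (Homer1). Their median was −0.10 in TDP-PBS, −0.07 in TDP-10+12 and 0 in TDP-15. With each group fitted alone, 4 of 19 slopes were positive in TDP-PBS, 2 in TDP-10+12 and 9 in TDP-15. In the middle mice 8 of 19 were positive. The bigenic mice thus lay below all ctrl-PBS mice in Snap25 and Nefl at either end of the Cxcl10 ranking.

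Oligodendrocyte genes gave 0 calls in edgeR among 20 tested, with 0 at an unadjusted p-value under 0.05, both with and without mouse 126, and 0 calls by DESeq2 and limma-voom. Mbp, the myelin basic protein gene, had 2131 to 2828 CPM in the high and 1601 to 3440 CPM in the low mice (slope −0.01, SE 0.05, adjusted p = 0.958). In the endothelial list Vcam1, an adhesion molecule, rose (slope 0.19, SE 0.04, adjusted p = 0.0133, and 0.19 with an adjusted p of 0.0747 without mouse 126) and 11 members were not called. Immediate early genes, genes of the ATF4 stress pathway and axon injury, and cell cycle genes gave 0 calls in edgeR among 11, 16 and 5 tested, with 0, 1 and 2 higher at an unadjusted p-value under 0.05 and 0, 2 and 1 without mouse 126. DESeq2 and limma-voom called 0 of the same genes. Among members that the filter had removed, DESeq2 called Sprr1a, a gene induced in injured axons, with a slope of 1.14 (adjusted p = 0.00875) on at most 42 counts.

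**Figure D5:**
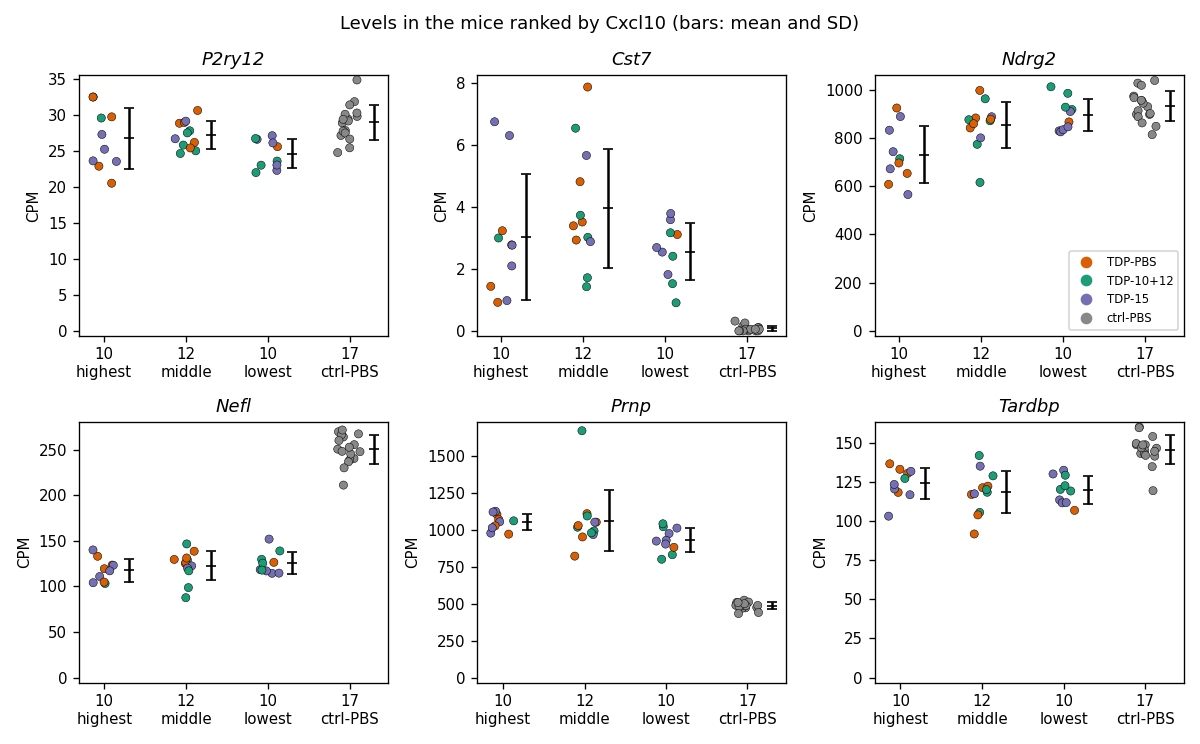
Level in CPM (vertical axes, from 0) of 6 genes in the 10 highest, 12 middle and 10 lowest bigenic mice by Cxcl10 and in the 17 ctrl-PBS mice, with 1 point per mouse coloured by immunization group and bars for the mean and SD. P2ry12, Cst7, Nefl and Tardbp overlap between the high and low mice, Ndrg2 and Prnp are shifted with overlap, and Prnp of every bigenic mouse (803 to 1674 CPM) lies above every ctrl-PBS mouse (434 to 525 CPM).

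Expression of the transgene was not measured directly. Levels of the mouse genes Tardbp and Prnp are given, and whether either follows the transgene was not tested. Tardbp had 103 to 137 CPM (median 126) in the high, 107 to 133 CPM (median 120) in the low and 120 to 160 CPM in the ctrl-PBS mice, and its slope was 0.02 (SE 0.03, adjusted p = 0.887). The sources used here do not say whether transgene-derived reads were assigned to Tardbp or to Prnp. Prnp, the prion protein gene, was higher in all bigenic than in all ctrl-PBS mice. It had 973 to 1128 CPM (median 1060) in the high and 803 to 1043 CPM (median 928) in the low mice, with 6 of 10 high mice above every low mouse. Its slope of 0.12 (SE 0.03) was not called by edgeR (adjusted p = 0.0750) but was called by DESeq2 (adjusted p = 0.0462) and limma-voom (adjusted p = 0.0379). Without TDP-10+12 mouse 301, which had the highest Prnp (1674 CPM), the slope of Prnp was 0.09 and was called by edgeR (adjusted p = 0.0275). Without mouse 126 it was 0.13 and not called (adjusted p = 0.139).

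Separately, log2 levels of 16 fixed genes were correlated with Cxcl10 across the 32 bigenic mice, with permutation tests adjusted over the 16 genes. Unlike the slopes, these correlations did not include immunization group as a factor, and the slopes were adjusted over all genes tested. The 2 kinds of adjusted p-value are therefore not interchangeable. In edgeR's test the slopes of Prnp, Gfap and Cxcl9 were not called (adjusted p = 0.075, 0.231 and 0.0964). Pearson's r was 0.84 for Isg15 (Spearman's rho 0.81), 0.83 for Ccl5 (rho 0.78) and 0.79 for Gbp2 (rho 0.79), each with a permutation p-value of 1.00e-05, the smallest that 100000 resamples can give, and an adjusted p-value of 4.00e-05. The adjusted permutation p-value of rho was 5.33e-05 for each of these 3 genes. For H2-K1 r was 0.68 (adjusted permutation p = 2.56e-04; rho 0.56, adjusted p = 3.17e-03), for Prnp 0.47 (permutation p = 0.00794, adjusted 0.0212; rho 0.56, adjusted 3.17e-03), for Cxcl9 0.44 (adjusted permutation p = 0.0278; rho 0.44, adjusted 0.0242) and for Gfap 0.43 (adjusted permutation p = 0.0285; rho 0.47, adjusted 0.0168). A further 8 genes, Aqp4, Cd3e, P2ry12, Cst7, Mbp, Tardbp, Snap25 and Nefl, had r between −0.21 and 0.34 with adjusted permutation p-values of at least 0.113. Without the 2 mice farthest from the median Cxcl10, TDP-15 mouse 126 and TDP-10+12 mouse 242, r was 0.77 for Isg15, 0.75 for Ccl5, 0.71 for Gbp2, 0.53 for H2-K1, 0.40 for Prnp and Cxcl9 and 0.26 for Gfap. Within TDP-PBS, TDP-10+12 and TDP-15, r was 0.87, 0.65 and 0.92 for Isg15, 0.61, 0.50 and 0.78 for Prnp and 0.11, 0.56 and 0.52 for Gfap. For Snap25 the 3 values were −0.66, −0.27 and 0.29.

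The 12 middle mice belong to neither the high nor the low set, but all 32 mice were ranked together. They were also part of the fit that chose the genes that rose and fell. This favours a shared sign, so the counts of signs below are a description. Fitted alone, with Cxcl10 spanning 1.01 log2 units, the middle mice gave 0 called genes with edgeR (smallest adjusted p = 0.202, with 499 of 18606 genes at an unadjusted p-value under 0.05). Of the 332 genes that rose over all 32 mice, 192 had a positive slope in the middle mice and 9 of the 332 had an unadjusted p-value under 0.05. Over all genes tested, 8841 of 17735 slopes were positive in these mice, with a median of 0.00. Of the 39 that fell, 27 had a negative slope. The median slope of the 36 type I interferon-stimulated genes was 0.02 in these mice, with 19 positive, and that of the 17 genes of the GTPase list was 0.22, with 14 positive. Within the middle mice r with Cxcl10 was 0.22 for Isg15, 0.07 for Ccl5, 0.33 for Gbp2 and −0.32 for H2-K1. A relation was thus not detectable within the middle mice, whose Cxcl10 differed by at most 2.02-fold.

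CXCL10 attracts T cells, but most of their transcripts were at the limit of detection. Of 17 genes of T and NK cells 3 passed the filter on low counts and 0 of these 3 were called by edgeR, DESeq2 or limma-voom, with 0 at an unadjusted p-value under 0.05, also without mouse 126. Without the filter 15 could be fitted, and all 15 slopes were positive with a median of 0.49 in edgeR and 0.52 in DESeq2. Over all 38208 genes fitted in this way, 19891 slopes were positive in edgeR and 19932 in DESeq2. Of these 15, edgeR called 1 and DESeq2 0. The called gene was Gzmb, the cytotoxic protease granzyme B, with a slope of 1.61 (adjusted p = 0.00982) on at most 10 counts in a bigenic mouse. Cd3e, a chain of the T cell receptor complex, had 0 to 0.254 CPM in the high and 0 to 0.147 CPM in the low mice and was counted in 5 and 6 of 10 mice. Cxcr3, the receptor of CXCL10, had 0 to 0.305 CPM against 0 to 0.251 CPM. The summed level of the T and NK list was 9.38 to 17.9 CPM in the high, 6.84 to 17.5 CPM in the low and 4.26 to 37.7 CPM in the ctrl-PBS mice. Cd4 alone reached 14.7 CPM in high TDP-PBS mouse 270 and 14.5 CPM in low TDP-10+12 mouse 51. Its ratio of means to ctrl-PBS was 0.445 in the high and 0.352 in the low mice. The sum thus depends heavily on 1 gene and is no measure of the list as a whole. In the list of border macrophages, monocytes and neutrophils 1 of 6 tested genes rose, Plac8, with 0.289 to 2.03 CPM against 0.0488 to 0.812 CPM (slope 0.63, SE 0.15, adjusted p = 0.0184, and 0.59 with an adjusted p of 0.170 without mouse 126).

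Tissue outside the neocortex was followed with lists for striatum, choroid plexus, meninges and blood, of which edgeR, DESeq2 and limma-voom called 0 of 21 genes, with 3 higher at an unadjusted p-value under 0.05. The summed level of the striatal list was 335 to 1354 CPM in the high and 329 to 858 CPM in the low mice. Its 6 slopes were positive with a median of 0.15, and the median was 0.55 in TDP-PBS, 0.05 in TDP-10+12 and −0.09 in TDP-15. TDP-PBS mouse 217, with 16.7 CPM of Cxcl10, had the highest Ppp1r1b (654 CPM) and Rgs9 (197 CPM) of the bigenic mice. The choroid plexus list was 18.4 to 1286 CPM against 14.1 to 1702 CPM, with single high libraries in both sets, TDP-PBS mouse 26 (Ttr at 1221 CPM) and TDP-10+12 mouse 51 (Ttr at 1583 CPM). The blood list was 17.1 to 471 CPM against 48.0 to 264 CPM. Its 5 slopes were positive in each immunization group, with a median of 0.33, which was 0.46 without mouse 126 and 2.97 in the 12 middle mice. Without mouse 126 edgeR again called 0 genes of these lists, and 3 striatal and 3 blood genes were higher at an unadjusted p-value under 0.05. The part of these tissues in the single genes above was not tested.

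Of the 332 genes that rose, 101 belong to at least 1 of the 30 lists and 231 to none, and of the 39 that fell 3 belong to a list. The 31 genes that separated high from low mice all rose in the test over 32 mice, and 21 of them belong to the interferon and GTPase lists. The 6 in no list were Parp9, Dtx3l and Parp10, which act in ADP-ribosylation and ubiquitination, Shisa5, Nupr1, a stress-induced nuclear protein with a slope of 0.46 (SE 0.06, adjusted p = 4.79e-06), and Fosl1, an AP-1 transcription factor with a slope of 0.94 (SE 0.14, adjusted p = 2.92e-05). Apart from Parp9, these names were picked with the values in view, as were Ccl7, Sprr1a and Gzmb above.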

How the data were processed

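For neocortical RNA of 49 mice the authors obtained paired reads of 100 bp on a DNBSEQ platform, aligned them to GRCm38.p6 and deposited a table of raw counts for each gene in each animal. The submitters' processing notes name HISAT, HISAT2, Bowtie, Bowtie2 and RSEM without roles, so the counts may be rounded estimates. Annotation and strand setting are not given in the sources used here. Groups and sex came from the labels.

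Cxcl10 CPM was the count divided by the library total. All other CPM used TMM factors. Genes were filtered with filterByExpr (at least 10 counts, at least 15 in total) and fitted with edgeR 4.0.16 under R 4.3.3 (glmQLFit, glmQLFTest, two-sided, Benjamini-Hochberg over all 17748 genes, threshold 0.05). The same fit was made in the 12 middle mice and with interactions. DESeq2 1.42.0 and limma-voom (limma 3.58.1) served as alternatives, and correlations used log2(CPM + 0.5). The fit was tested on simulated counts. Python 3.11.15 and matplotlib 3.10.9 made the figures. Sequences and positions are from RefSeq GRCm38.p6, in which all 17748 symbols were found. Total counts of 17775738 to 21033608 make 3 counts 0.143 to 0.169 CPM.

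The members and gene lists were chosen with earlier results of these data known. Genes named were the 12 with the smallest p-value in each direction, the members with the highest and the lowest slope of each list, a fixed set of 27 and the 5 genes with the highest and 5 with the lowest correlation with Cxcl10. Further list members were picked for the text with their values in view. P-values measure the spread between mice. Some items of these lists are not reported here.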

Additional observations from a re-analysis of the deposited data

Results flagged for a closer look

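Among 101 genes, 36 of 200 combinations of a gene and a set of 10 mice had 1 mouse far from the other 9 by Dixon's criterion. Its chance rate of about 1 of 20 holds for independent, normally distributed values. The genes vary together and many were named for their relation to Cxcl10, so the 36 cannot be set against this rate. Of the 36, 26 were in the high and 10 in the low set, and 17 of the 26 concerned TDP-15 mouse 126, the mouse with the highest Cxcl10. It had the highest level of the high mice in Gbp6 (64.0 CPM), Gbp2 (24.4 CPM), Ifit2 (46.6 CPM), Ifitm3 (48.9 CPM), Oas2 (32.6 CPM), Rsad2 (35.6 CPM), Zbp1 (11.6 CPM), Irf1 (9.54 CPM), Irf5 (11.2 CPM), Irf7 (123 CPM) and Nlrc5 (10.1 CPM). The same held for Icam1 (22.1 CPM), C3 (12.6 CPM), Itgax (22.4 CPM), Timp1 (3.45 CPM) and the collagen gene Col1a1 (38.3 CPM), while its Prdm16os was the lowest at 3.96 CPM.

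Choroid plexus genes stood out in 1 mouse of each set. TDP-PBS mouse 26 had the highest Ttr (1221 CPM), Kcnj13 (6.95 CPM), Apoe (1399 CPM) and Gja1 (92.4 CPM) of the high mice and differed in Crym (29.9 CPM). TDP-10+12 mouse 51 stood apart in the low set in Ttr (1583 CPM), Kcnj13 (9.79 CPM), Cd4 (14.5 CPM), Hbb-bt (28.1 CPM) and Timp1 (1.22 CPM).

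Single values far from the other mice were, in the high set, Abhd1 in TDP-15 mouse 346 (8.01 CPM), Egr2 in TDP-10+12 mouse 266 (42.7 CPM), H2-DMa in TDP-15 mouse 328 (60.7 CPM) and Ifng in TDP-15 mouse 261 (0.0969 CPM). In the low set they were C3 (4.48 CPM) and H2-K1 (59.7 CPM) in TDP-15 mouse 59, Cd3e (0.147 CPM) and Il1b (0.732 CPM) in TDP-15 mouse 54 and Gad2 in TDP-15 mouse 254 (219 CPM). Of these mice, only mouse 126 was left out of the fit on its own.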

How the results depend on the processing

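Of 332 genes that rose and 39 that fell with Cxcl10, 131 and 13 were called without the mouse with the highest Cxcl10, 91 and 3 without the 2 mice farthest from the median, and 105 and 7 without the 3 highest mice, an alternative chosen after seeing the data. The shared genes were 126 and 4, 89 and 1, and 105 and 2. TDP-PBS mice alone gave 10 and 2, TDP-10+12 mice 0 and 0, TDP-15 mice 164 and 16, females 0 and 1, and males 11 fallen genes. DESeq2's Wald test gave 72 fallen genes and Cxcl10 ranks as normal scores 22. The slope of C3 turned to −0.089 in TDP-PBS mice (adjusted p = 0.943). With 8 highest and 8 lowest mice, 50 genes lay wholly above and 2 wholly below, and with 12 of each 0 lay above. Subsets hold fewer mice by construction, and the cause of these changes was not tested. Among 96 named genes, 22 lost their call without the mouse with the highest Cxcl10. Size factors, upper-quartile normalization, a Cxcl10 on TMM-scaled libraries and pseudocounts of 0.1 and 2 changed no call of a named gene or correlation. Genes with few counts, such as Ifng and Cd3e, are limited by depth. No paired analysis was possible because every mouse was a separate animal with its own number.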

Other observations

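TDP-10+12 mouse 301, in the middle set with 7.15 CPM of Cxcl10, had the highest level of the bigenic mice in several genes of astrocytes and in Prnp. The same held for Gad2, Homer1, Top2a and Tardbp, so its high values were not limited to astrocyte genes. Its Gfap was 1133 CPM with the next mouse at 593 CPM, its Timp1 11.5 CPM with the next at 3.45 CPM, its Aqp4 141 CPM with the next at 101 CPM and its Prnp 1674 CPM with the next at 1128 CPM. Its Gbp6 (11.2 CPM) and Isg15 (3.37 CPM) were the lowest of the 12 middle mice. Without this mouse, 322 genes rose and 32 fell with Cxcl10.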
